A study of Rattus norvegicus with 18 samples.

Results

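miR-140-3p (rno-miR-140-3p in the deposited table) was followed through 18 small RNA libraries from rat liver, where it is 1 of 401 mature miRNAs. It was chosen by its name, with its level in obese against lean liver already known, so its obese and lean levels are given below as a description and carry no test. The other arm of the same precursor, miR-140-5p, also has a row and was not used in the choice. The libraries form 3 groups of 6, made from livers of rats at 8 weeks of age: obese ZDF rats given colesevelam, obese ZDF rats given vehicle, and lean rats with no agent named. Colesevelam holds bile acids in the gut as a polymer that is not absorbed, and Zucker diabetic fatty (ZDF) rats become obese and diabetic because the fa allele of Lepr leaves them without a working leptin receptor. The labels give the strain ZDF-Leprfa/Crl for all 3 groups, the lean one included, so the lean rats are known by their name and phenotype alone and their Lepr genotype is not stated. Dose and length of treatment are not stated either. The label numbers of 5 pairs of libraries are the same within a group, which leaves 4 distinct numbers with colesevelam, 5 with vehicle and 4 in lean, and the labels tie no library to its own rat; the spread that enters the p-values is that among libraries and may be partly technical.

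miRNAs are short RNAs cut as a pair of arms, 5p and 3p, from a hairpin, and the arm held by an Argonaute protein pairs with target mRNAs mainly through its seed, bases 2 to 8. In mouse and human, miR-140 lies in an intron of Wwp2, the gene of a ubiquitin ligase, and is best known from cartilage, where the transcription factor Sox9 drives it and mice without it have skeletal defects. It is not a classic hepatocyte miRNA of the kind of miR-122, but in liver its loss makes mice more prone to tumours and its 5p arm is reduced in human hepatocellular carcinoma. In the GRCr8 assembly of the rat, Wwp2 is the 1 annotated gene whose span holds Mir140, on the same plus strand.

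The sequences are shown because the results compare the 2 arms of this precursor. They are from RefSeq with build GRCr8, 5′ to 3′, with the seed in capitals in each arm, and the arms equal the sequences of the deposited table with U for T.
miR-140-3p: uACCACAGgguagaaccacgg
miR-140-5p: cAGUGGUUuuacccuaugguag
The hairpin lies at chr19:52375293-52375391 on the plus strand of GRCr8 and has 99 bases, with both arms in capitals, the 5p arm at bases 22 to 43 and the 3p arm at bases 61 to 81.
Mir140 hairpin: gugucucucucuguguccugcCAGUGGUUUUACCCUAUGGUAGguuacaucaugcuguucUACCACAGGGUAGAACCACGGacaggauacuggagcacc
The deposited table places miR-140-3p at 50471313 to 50471333 and miR-140-5p at 50471274 to 50471295 on the plus strand of chromosome 19, in a build that neither its header nor the labels name; the arms start 39 bases apart there and in GRCr8. No other row of the table and none of the 724 mature rat miRNAs listed by RefSeq has the seed of either arm. The nearest row to miR-140-3p, miR-3561-3p, differs from it by 6 edits, and both arms have 1 location each. Human and mouse miR-140-3p are known to begin at more than 1 base, which shifts the seed; a count per name does not tell such forms apart.

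The libraries held 32936 to 122881 counts with colesevelam, 37910 to 147313 with vehicle and 110352 to 881452 in lean rats, so lean libraries were the deeper ones. Levels are CPM, counts scaled to a common library total by the trimmed mean of M values (TMM), which assumes that most miRNAs do not differ; a level is therefore relative to the other miRNAs of its library. Of the 401 rows 112 passed a filter on low counts, miR-140-3p among them and miR-140-5p not. The 6 hepatocyte miRNAs listed (among them miR-122-5p, miR-192-5p and miR-194-5p) summed to 266327 to 497112 CPM with colesevelam, 215427 to 352746 CPM with vehicle and 288207 to 483274 CPM in lean libraries, so the libraries carry the markers of their labelled tissue.

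miR-140-3p had 55, 57, 113, 20, 52 and 49 counts in colesevelam libraries 1 to 6, 86, 43, 68, 59, 117 and 147 counts in vehicle libraries 1 to 6, and 65, 397, 174, 275, 104 and 81 counts in lean libraries 1 to 6. Scaled, these came to 1552, 1018, 1254, 535, 521 and 928 CPM with colesevelam, to 2145, 893, 1672, 1175, 764 and 1732 CPM with vehicle, and to 563, 522, 766, 657, 660 and 478 CPM in lean rats. Of the vehicle libraries 5 of 6 lay above every lean one, and the remaining vehicle library, replicate 5, lay just under the highest lean one, replicate 3. With colesevelam 4 libraries lay above every lean one, while replicates 4 and 5 lay within the lean range. No colesevelam library lay above all vehicle libraries, and replicates 4 and 5 lay below all of them.

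The mean level was 968 ± 404 CPM with colesevelam, 1397 ± 539 CPM with vehicle and 608 ± 106 CPM in lean liver (SD, n = 6 each), so the order was vehicle, colesevelam, lean. Neighbours in that order overlapped: colesevelam and vehicle by most of their libraries, and colesevelam and lean by 2 colesevelam libraries. Vehicle and lean libraries overlapped only in the pair named above. Groups without any overlap occurred for 5.36% of the tested miRNAs between colesevelam and vehicle, 2.68% between vehicle and lean, and 8.04% between colesevelam and lean. The spread between lean libraries was narrow, with a coefficient of variation of 17.5% where counting alone gives 9.06%. It was 41.7% with colesevelam and 38.6% with vehicle, where counting alone gives 15.0% and 11.7%. In each group the spread thus exceeded counting error.

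**Figure D1:**
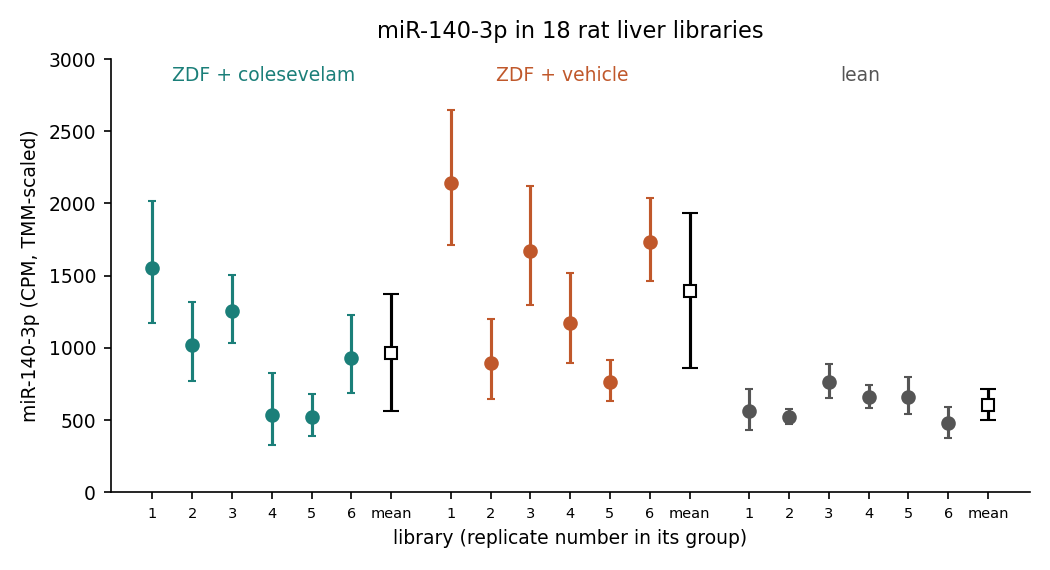
Level of miR-140-3p (CPM, TMM-scaled, linear axis from 0) in each library by replicate number, with bars for the exact 95% Poisson interval of its count, and the mean ± SD of each group (open squares, n = 6). Vehicle libraries reach from 764 to 2145 CPM and lean ones from 478 to 766 CPM, an order that turns round with the authors' size factors.

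In colesevelam against vehicle livers, which asks what the resin changed in obese rats, miR-140-3p did not pass the test. Its log2 fold change was −0.53 ± 0.29 (SE; edgeR quasi-likelihood test, Benjamini-Hochberg adjusted p = 0.359 over 112 miRNAs). A 95% interval from that SE and a t distribution on the residual degrees of freedom alone was −1.15 to 0.10. Of all miRNAs tested 10.7% passed at an adjusted p under 0.05, 7.14% higher and 3.57% lower with colesevelam. The interval holds no difference as well as a level with colesevelam below the level with vehicle by more than 1 on the log2 scale. The fold change stayed below 0 in each of 16 other fits (−0.77 to −0.36, adjusted p = 0.266 to 0.587) and whichever library was left out (−0.66 to −0.30). The vehicle libraries of this comparison are also those of the comparison that the choice of miR-140-3p rests on, so the 2 values are not independent. The authors' deposited table gives a log2 fold change of −0.77 (adjusted p = 0.245) for miR-140-3p in this comparison.

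Set against lean liver, miR-140-3p stood 1.19 ± 0.29 (SE, log2) higher with vehicle, 2.28-fold, and 0.67 ± 0.29 higher with colesevelam, 1.59-fold, relative to the other miRNAs in the edgeR fit; with the authors' size factors both turned round, to −1.27 for vehicle and −2.05 for colesevelam. The median log2 fold change of the tested miRNAs was 0.01 for vehicle and −0.08 for colesevelam with TMM, but −2.38 and −2.76 with the authors' factors, which do not follow the total of counted miRNAs. Taken from that median, miR-140-3p stood 1.19 (TMM) and 1.11 (authors' factors) higher with vehicle, and 0.74 and 0.71 higher with colesevelam. Its value for vehicle ranked 4 of 112 and that for colesevelam 15 of 112. In the authors' deposited table the log2 fold change of miR-140-3p against lean is −1.28 for vehicle, higher than in 97.8% of its 183 rows with a value, and −2.05 for colesevelam, higher than in 86.3% of 182 rows. These figures describe the pattern for which miR-140-3p was chosen, with lean libraries shared between them; 6.25% of all tested miRNAs passed with vehicle (3.57% higher, 2.68% lower) and 21.4% with colesevelam (11.6% higher, 9.82% lower).

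**Figure D2:**
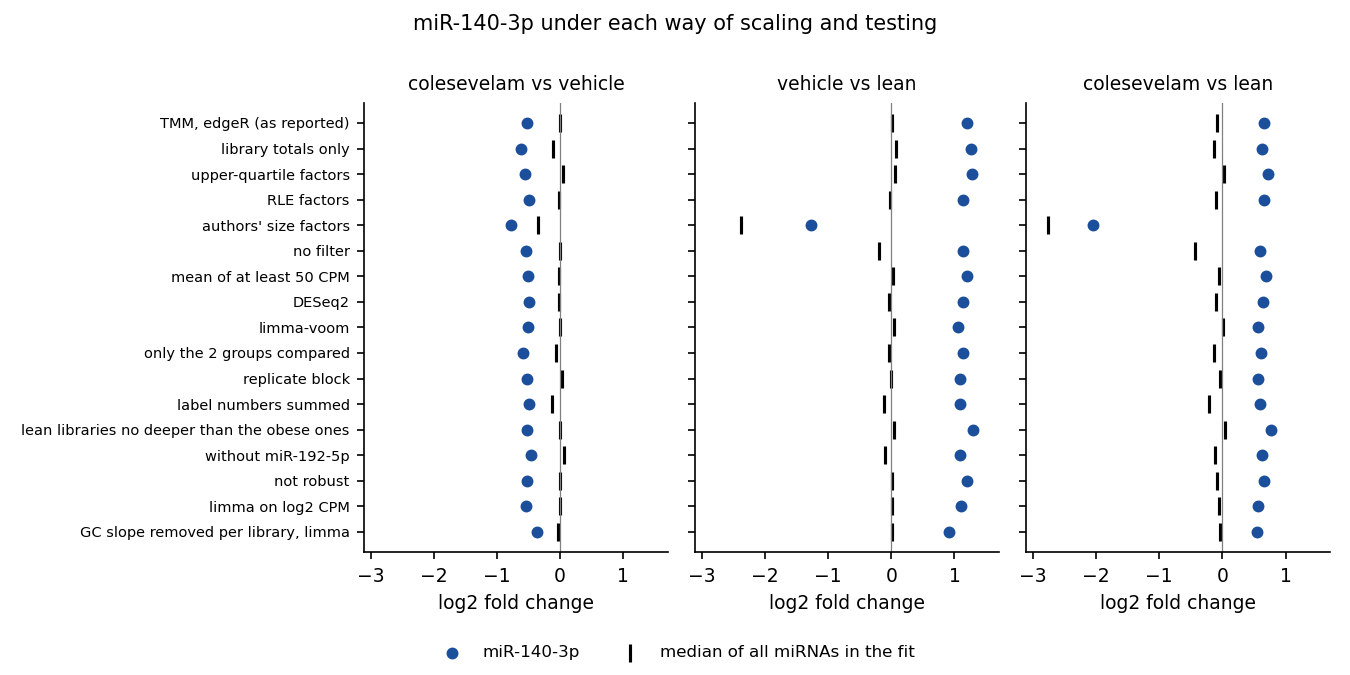
Log2 fold change of miR-140-3p (points) and the median over all miRNAs in the same fit (bars) for each way of scaling, filtering and testing, in the 3 comparisons. With the authors' size factors the values against lean are −1.27 and −2.05 in place of 1.19 and 0.67, while miR-140-3p stays above the median of its fit; against vehicle it stays below that median in every fit shown.

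Ranks and ratios within a library need no scaling between libraries. By rank among the 401 rows of its own library, miR-140-3p stood at 44 to 64.5 with colesevelam, 37 to 53.5 with vehicle and 56 to 68.5 in lean libraries (1 is the most abundant). Per 1000 counts of miR-122-5p, the classic hepatocyte miRNA, it had 21.1 ± 11.0 counts with colesevelam, 37.2 ± 10.4 with vehicle and 17.3 ± 8.53 in lean libraries (SD, n = 6 each). Per 1000 counts of miR-192-5p, the most abundant liver miRNA, it had 4.55 ± 2.97, 8.42 ± 5.22 and 2.61 ± 1.30 counts in the same order of groups. Both ratios were highest with vehicle, and the colesevelam and lean means differed by less than the spread within colesevelam.

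GC content and depth of the libraries were set beside the miR-140-3p level. Vehicle libraries 1 and 6, the highest and second highest in miR-140-3p, also had the 2 steepest slopes of miRNA level on GC content of all 18 libraries, 0.42 and 0.39 log2 units per 10% GC, against a range of −0.34 to 0.22 with colesevelam and −0.35 to 0.19 in lean libraries. Other libraries went both ways. Colesevelam replicate 4 had the highest slope of its group at 535 CPM of miR-140-3p. Colesevelam replicate 3 (slope −0.34) stood at 1254 CPM and vehicle replicate 4 (slope −0.31) at 1175 CPM. With the slope went colesevelam replicates 1 (0.11, 1552 CPM) and 5 (−0.34, 521 CPM). So did lean replicates 3 (0.13, 766 CPM), 2 (−0.22, 522 CPM) and 6 (−0.30, 478 CPM). Lean replicates 1 and 5, with slopes of 0.19 and 0.16, stood at 563 and 660 CPM. Lean replicate 4, with the lowest slope of all 18 libraries (−0.35), stood at 657 CPM. Vehicle replicates 2, 3 and 5, with slopes of 0.16, 0.15 and −0.09, stood at 893, 1672 and 764 CPM. Colesevelam replicates 2 and 6, with slopes of −0.08 and 0.11, stood at 1018 and 928 CPM. miR-140-3p has 57.1% GC, where the median of the tested miRNAs is 45.5%. With the slope of each library removed, the log2 fold change of miR-140-3p in a limma fit of log2 CPM was −0.36 for colesevelam against vehicle, 0.92 for vehicle against lean and 0.55 for colesevelam against lean. The same limma fit without that step gave −0.54, 1.11 and 0.57. Depth went with obesity, and the 1 lean library no deeper than the deepest obese one, replicate 1, gave 1.30 for vehicle and 0.77 for colesevelam when it stood for lean alone, a single library with no spread of its own. How far these properties take part in the result was not tested beyond these values.

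The 5p arm was far scarcer. miR-140-5p had 0, 0, 1, 0, 3 and 0 counts in colesevelam libraries 1 to 6, 0, 0, 1, 1, 1 and 2 counts in vehicle libraries, and 2, 16, 6, 40, 2 and 4 counts in lean libraries. It was detected in 2 of 6 colesevelam, 4 of 6 vehicle and 6 of 6 lean libraries, but a count of 0 allows up to 84.7 CPM in the shallowest library, against 3.94 CPM in the deepest. Over the summed counts it stood at 10.8 CPM with colesevelam (exact 95% Poisson interval 2.93 to 27.6), 12.0 CPM with vehicle (3.89 to 28.0) and 37.9 CPM in lean liver (29.5 to 47.8). Lean replicate 4 alone held 57.1% of the lean counts, and without it lean stood at 21.0 CPM (14.1 to 29.9), so that the intervals overlap. Intervals of counts cover counting error only.

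Tested per library, miR-140-5p did not pass in any comparison. The mean was 6.86 ± 12.2 CPM with colesevelam and 12.4 ± 11.6 CPM with vehicle (SD, n = 6 each; two-sided exact permutation p = 0.416, adjusted p = 0.554 over 4 such tests). Against 32.8 ± 31.2 CPM in lean liver, the exact permutation test gave p = 0.0346 for colesevelam (adjusted p = 0.139) and p = 0.0974 for vehicle (adjusted p = 0.195), with lower means in both obese groups. The smallest p this test can give is 0.00216. The exact permutation test did pass for colesevelam against lean without colesevelam replicate 5 (adjusted p = 0.0346). That library holds 3 of the 4 counts of its group. The same test also passed for both obese groups against lean with the authors' size factors (adjusted p = 0.00866 each). Those factors ran only from 0.75 to 1.46, where library totals ran from 32936 to 881452 and most lean libraries were deeper. With them the median log2 fold change of all tested miRNAs against lean was −2.38 for vehicle and −2.76 for colesevelam. How far depth enters these 2 passes was not tested. The authors' deposited table gives miR-140-5p log2 fold changes of −3.90 for vehicle and −4.39 for colesevelam against lean, beside medians of −2.41 and −2.87 over its rows.

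As a share of both arms, miR-140-5p made up 1.14% of 350 counts with colesevelam (exact 95% Clopper-Pearson interval 0.312% to 2.90%), 0.952% of 525 counts with vehicle (0.310% to 2.21%) and 6.00% of 1166 counts in lean liver (4.71% to 7.52%). Without lean replicate 4 the lean share was 3.53% of 851 counts (2.39% to 4.99%). Per 5p count there were thus 86.5 counts of miR-140-3p with colesevelam, 104 with vehicle and 15.7 in lean liver, or 27.4 in lean liver without replicate 4. This ratio needs no scaling between libraries, but it holds the count of miR-140-3p, so against lean it is a description. Per library the log2 ratio of 3p over 5p, with 0.5 counts added to each arm, averaged 5.96 ± 1.15 with colesevelam, 6.15 ± 0.77 with vehicle and 4.40 ± 0.89 in lean liver (SD, n = 6 each). The 5p count is 0 in 4 colesevelam and 2 vehicle libraries, where the added 0.5 counts and the 3p count set the ratio, so the comparison of the obese groups carries little information on the 5p arm. They differed by −0.18 (two-sided exact permutation p = 0.766, adjusted p = 0.766), by −0.36 with 1 count added to each arm, and by 0.23 or 0.07 when colesevelam replicate 5 or vehicle replicate 1 was left out. Against lean the difference was 1.75 for vehicle and 1.57 for colesevelam with 0.5 counts added, and 1.31 and 0.95 with 1 count added.

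**Figure D3:**
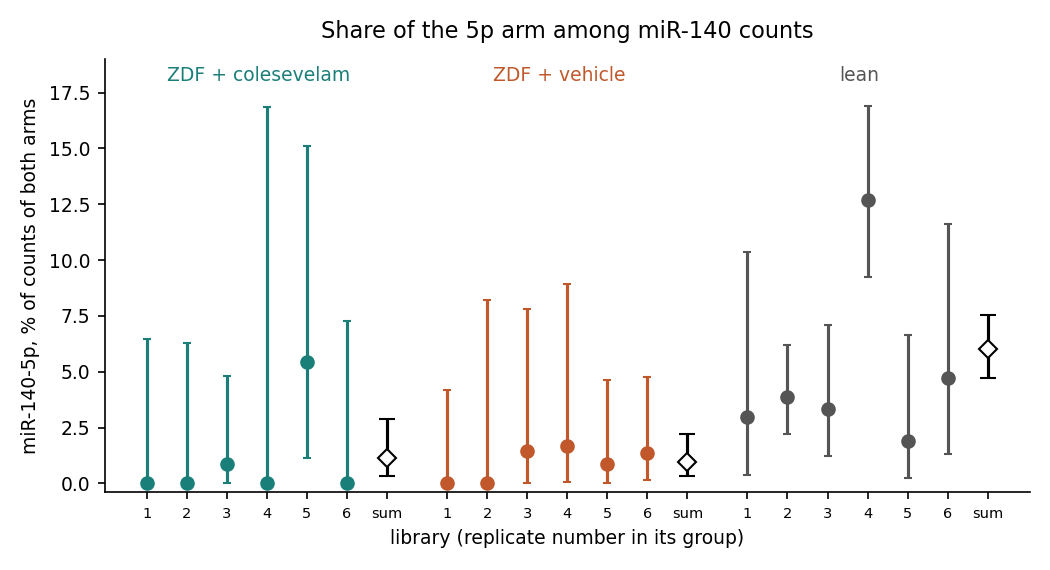
miR-140-5p as a percentage of the counts of both miR-140 arms, per library (points, with exact 95% binomial intervals) and over the summed counts of each group (open diamonds). The summed share is 1.14% with colesevelam, 0.952% with vehicle and 6.00% in lean libraries, where replicate 4 stands highest at 12.7%.

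The table holds both arms for 125 precursors, and miR-140 ranked 26 by the ratio of 3p over 5p summed over all 18 libraries, between miR-148a and miR-29b; without lean replicate 4 it ranked 21. For 53 precursors each arm had at least 20 counts. By unadjusted summed counts the minor arm had a lower share with vehicle than in lean liver in 25 of these 53, and with colesevelam in 32, so shares moved both ways across precursors. For miR-140 the log2 ratio of minor over major arm was lower by 2.61 with vehicle than in lean libraries (−2.61), rank 1 of 53, followed by miR-340 at −2.39; without lean replicate 4 it was −1.81 and ranked 2, behind miR-340 at −2.32. This value too holds the miR-140-3p counts of vehicle and lean and is a description. The rank also depends on the minimum of 20 counts, which miR-140-5p met through lean. It had 70 counts there, 5 with vehicle and 4 with colesevelam. The minor arm of miR-340 met the minimum in the same way, with 38 counts in lean and 2 with vehicle. Minor arms counted mainly in the deeper lean libraries can pass, so a rank at this end may be set in part by that filter. At the other end stood miR-21, whose minor arm is miR-21-3p, at 2.53.

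**Figure D4:**
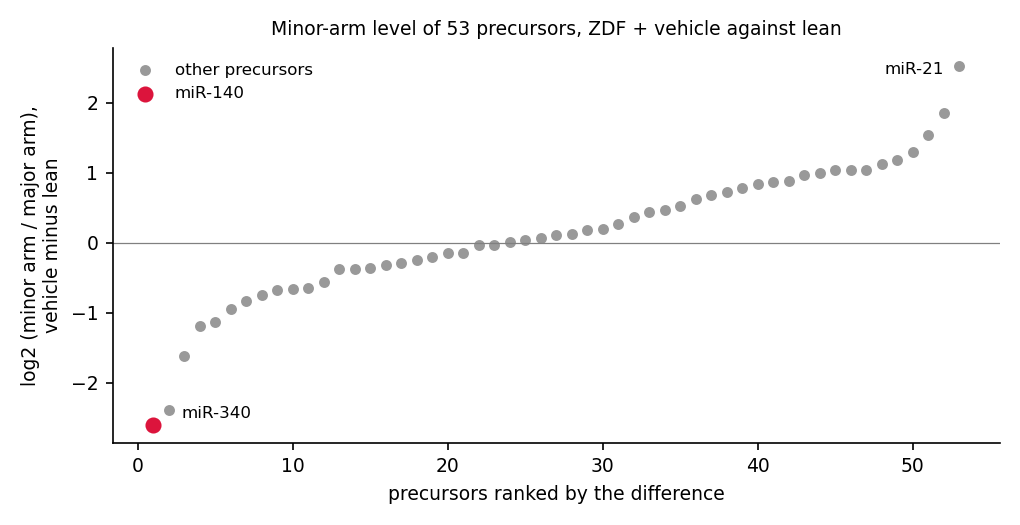
Log2 ratio of the minor over the major arm in the summed vehicle libraries minus the same in the summed lean libraries, for 53 precursors in rank order (0.5 counts added to each sum). miR-140 is lowest at −2.61 and miR-21 highest at 2.53, and 23 of the 53 lie below 0.

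Among the tested miRNAs, the pattern most like that of miR-140-3p over the 18 libraries was that of miR-21-3p, the rarer strand from the precursor of injury-linked miR-21 (Pearson r = 0.70 of log2 CPM, Spearman 0.66). It was followed by miR-6215 (r = 0.63), the hypoxia-linked miR-210-3p (0.62), miR-340-5p (0.61) and miR-378a-3p, which lies within the gene of the coactivator PGC-1β (0.55), where the median over 111 miRNAs was 0.03. miR-6215 had 0 to 7 counts per lean library, so its lean values lie near 0. It had 216, 3, 88, 3, 1 and 1 counts in colesevelam libraries 1 to 6. In vehicle libraries 1 to 6 it had 2, 185, 285, 194, 120 and 71 counts. The 2 miRNAs of each pair come from the same libraries and so share each library's depth and GC slope. Most of the likeness of 3 of these miRNAs lies between the groups: taken as deviations from group means, r was 0.26 for miR-21-3p, 0.24 for miR-6215 and 0.20 for miR-378a-3p. Within groups the nearest was miR-210-3p (r = 0.65), at 115 ± 58.6 CPM with colesevelam, 144 ± 81.1 CPM with vehicle and 96.8 ± 28.3 CPM in lean liver. Then came let-7c-5p (0.48), let-7b-5p (0.45), miR-1843a-5p (0.44) and miR-423-5p (0.43). In the lean libraries alone miR-210-3p did not follow miR-140-3p (r = 0.01 over 6 libraries), while it did within the obese groups (r = 0.70 over 12). miR-210-3p had only 1 to 16 counts per colesevelam library and 3 to 17 per vehicle library, against 10 to 70 per lean library. Its obese values therefore carry much counting error. Colesevelam replicate 4, with 1 count of miR-210-3p, also stood low in miR-140-3p, at 535 CPM.

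**Figure D5:**
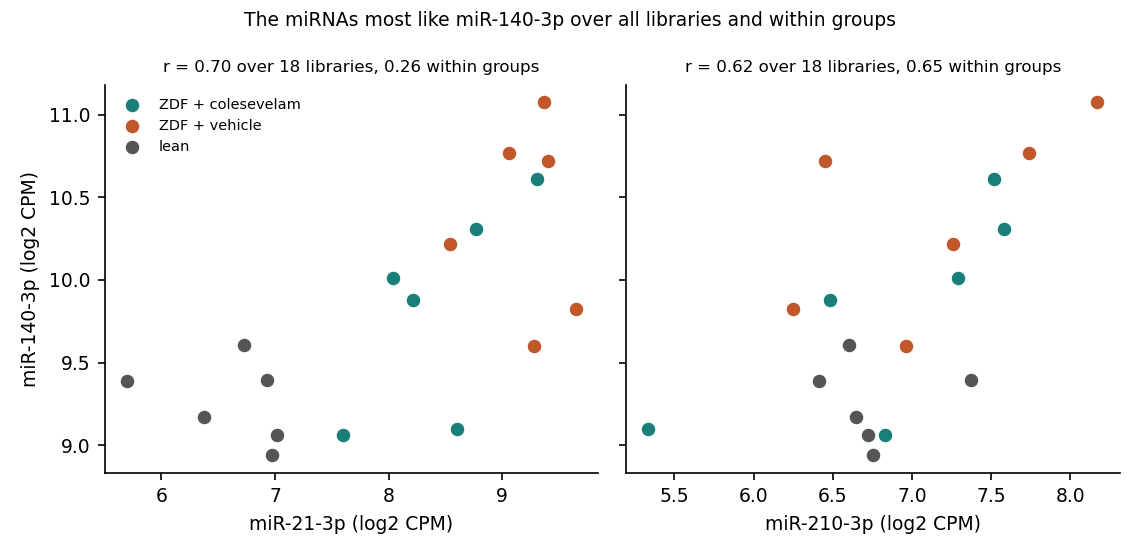
Log2 CPM of miR-140-3p against miR-21-3p (left) and miR-210-3p (right) in the 18 libraries, coloured by group. For miR-21-3p (r = 0.70) the lean libraries stand apart from both obese groups, which overlap each other, and r within groups is 0.26; for miR-210-3p r is 0.62 over all libraries and 0.65 within groups.

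By abundance over all libraries miR-140-3p ranked 51, between miR-203a-3p and miR-340-5p. miR-203a-3p, at 1120 ± 246 CPM with colesevelam, 1094 ± 266 CPM with vehicle and 948 ± 222 CPM in lean liver, shows the spread of a neighbour of like count. miR-340-5p had 1003 ± 470, 1201 ± 411 and 710 ± 90.0 CPM in the same groups (SD, n = 6 each), an order like that of miR-140-3p; its own log2 fold change of vehicle against lean was 0.75 ± 0.29 (edgeR adjusted p = 0.135).

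Bulk liver cannot tell more miRNA per cell from more cells of a type, and miR-140 is rich in mesenchymal cells, so other markers of such cells were set beside it. Of the 10 stromal miRNAs listed 5 were tested, and none was called in any of the 3 comparisons, where 10.7% (colesevelam against vehicle), 6.25% (vehicle against lean) and 21.4% (colesevelam against lean) of all tested miRNAs were; with 5 members, 0 calls is near those shares. With vehicle against lean, miR-143-3p was at 0.09 ± 0.18, miR-199a-3p at −0.06 ± 0.27, miR-145-5p at −0.05 ± 0.31 and miR-125b-5p at 0.09 ± 0.24 (log2 ± SE). With colesevelam against lean the same 4 were at 0.14 ± 0.18, −0.72 ± 0.28, −0.65 ± 0.33 and 0.29 ± 0.24, and with colesevelam against vehicle at 0.05 ± 0.18, −0.65 ± 0.29, −0.60 ± 0.34 and 0.20 ± 0.24. The stromal list summed to 36153 to 64969 CPM with colesevelam, 38403 to 52244 CPM with vehicle and 35839 to 50153 CPM in lean libraries, so the groups overlapped widely. In every library most of this sum was miR-143-3p, as in vehicle replicate 1 (1347 of 1540 counts) and lean replicate 6 (5983 of 6551). The sum therefore says little about the other members. The log2 ratio of miR-140-3p to that sum was −5.63 ± 0.81 with colesevelam, −5.07 ± 0.76 with vehicle and −6.11 ± 0.37 in lean libraries (SD, n = 6 each). A list of chondrocyte miRNAs was too low to test beside miR-140-3p itself: miR-140-5p and both arms of miR-455, another cartilage-rich miRNA, summed to a median of 70.7 CPM with colesevelam (26.8 to 107), 89.0 CPM with vehicle (62.3 to 177) and 144 CPM in lean libraries (95.3 to 206). Lean thus stood highest in this sum and lowest in miR-140-3p, while vehicle stood above colesevelam in both. The obese sums came from 1 to 15 counts per library. In lean replicate 4, 40 of the 75 counts were miR-140-5p. miR-455-3p stood at 23.9 ± 23.5 CPM with colesevelam, 46.4 ± 32.0 CPM with vehicle and 57.6 ± 34.1 CPM in lean liver (SD, n = 6 each). These levels came from 9, 20 and 76 summed counts. miR-455-5p had 13, 17 and 116 summed counts in the same order of groups, not scaled for depth.

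None of the 6 hepatocyte miRNAs was called with vehicle against lean (median log2 fold change −0.27, beside 0.01 over all tested) or with colesevelam against vehicle (0.07, beside −0.01), and 1 fell with colesevelam against lean, miR-122-3p at −0.85 ± 0.22 (edgeR adjusted p = 0.00883). These counts lie near the shares over all tested miRNAs, 6.25%, 10.7% and 21.4% in that order of comparisons. Of 2 tested leukocyte miRNAs miR-142-5p fell with vehicle against lean (−1.27 ± 0.36, edgeR adjusted p = 0.0328), and both fell with colesevelam against lean; miR-150-5p fell with colesevelam against vehicle. Over all tested miRNAs 2.68%, 9.82% and 3.57% were lower in these 3 comparisons. The leukocyte list summed to 766 to 1544 CPM with colesevelam, 1036 to 1543 CPM with vehicle and 1585 to 3760 CPM in lean libraries, so it was lower in every obese library than in any lean one, and the part of this in the miR-140-3p levels was not tested. Among single tested miRNAs 2.68% (vehicle against lean) and 8.04% (colesevelam against lean) had no overlap. Its members did not all fall: miR-150-5p was at −0.0002 ± 0.34 (log2 ± SE) with vehicle against lean. The 2 endothelial miRNAs, the arms of miR-126a, were not called in any comparison; they summed to 5058 to 12563 CPM with colesevelam, 3475 to 7947 CPM with vehicle and 5368 to 12310 CPM in lean libraries. Of the 3 erythroid miRNAs the 1 tested, miR-451-5p, was not called, and their sum was 56.8 to 451 CPM with colesevelam, 106 to 340 CPM with vehicle and 197 to 513 CPM in lean libraries. No hepatocyte or endothelial member was at 0 in any library, while up to 3 of the 5 leukocyte members were at 0 in single obese libraries and up to 1 in lean ones.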

How the data were processed

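Small RNA of 18 rat liver libraries was counted per mature miRNA; the authors deposited 1 table of estimated counts, not scaled between libraries (297 of 7218 values are not whole), with the locations and sequences of the miRNAs. It also gives, per the file headers, the authors' DESeq2 log2 fold changes, p-values and means of counts divided by their size factors. Bowtie 1.1.2 and DESeq2 1.18.1 are named in the submitters' processing notes; the sources used here do not name the trimming, the genome build or the counting. Per the labels' protocols, total RNA was made into libraries with an Illumina TruSeq RNA kit.

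Counts were rounded, filtered with filterByExpr (minimum count 10, total 15), scaled by TMM and tested in 1 quasi-likelihood fit over all libraries (edgeR 4.0.16, limma 3.58.1, DESeq2 1.42.0 as alternatives, R 4.3.3). P-values were adjusted over the 112 rows kept, at 0.05. The fits were tested on simulated data. miR-140-5p, below the filter, and the ratio of arms were compared by exact permutation tests over libraries. The authors' size factors were recovered exactly from their mean scaled counts. The member, the lists, tests and alternatives were chosen with earlier results of these data known. Named miRNAs were both arms, the 5 with the highest Pearson r over libraries and the 5 within groups, neighbours in level and in ratio of arms, and up to 4 members a list. Lists were chondrocyte, stromal, hepatocyte, endothelial, leukocyte and erythroid. The replicate numbers did not pair libraries.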

Additional observations from a re-analysis of the deposited data

Results flagged for a closer look

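2 values stood far from the other libraries of their group, by the gap to the nearest library as a share of the group's range, in 15 checks of miR-140 measures. With normally distributed values chance alone flags about 1 group in 20. Both values are of miR-140-5p, which has few counts in most libraries, so that rate need not hold for it. miR-140-5p stood at 30.1 CPM in colesevelam replicate 5, from 3 counts, where the other 5 colesevelam libraries held 0 or 1 count. It stood at 95.6 CPM in lean replicate 4, from 40 counts, where the other lean libraries lay between 12.7 and 26.4 CPM; miR-140-3p in that library, at 657 CPM, lay within the lean range.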

How the results depend on the processing

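Under other scalings, filters and tests, and with limma on log2 CPM with and without the GC slope removed (both chosen after seeing the data), the direction of miR-140-3p held in all but 1, the authors' size factors, where vehicle against lean became −1.27 and colesevelam against lean −2.05. Without 1 library each, miR-140-3p ranged from −0.66 to −0.30 (colesevelam against vehicle), 1.02 to 1.32 (vehicle against lean) and 0.55 to 0.81 (colesevelam against lean). miR-140-5p (log2 ratio of means) ranged from −2.42 to −0.43, −1.80 to −0.74 and −3.84 to −1.66; with the authors' size factors it reached −3.89 and −4.39 against lean and passed, while against the 1 shallow lean library it was −0.48 and −1.34, with no spread in lean to test. DESeq2, limma-voom, the 50 CPM minimum and the fit of 2 groups were not run for it, as it fell below the filter. The log2 ratio of arms ranged from −0.36 to 0.23, 1.42 to 1.95 and 1.24 to 1.98, from pooled counts it was 2.73 for vehicle against lean, and with 1 count added to each arm it was −0.36, 1.31 and 0.95. The number of miRNAs called, 12 for colesevelam against vehicle, was 6 with upper-quartile factors, 2 with the authors' factors, 7 without a filter and 7 with a replicate block (7 to 12 without 1 library). For vehicle against lean, 7 became 110 with the authors' factors and 3 with label numbers summed (5 to 8 without 1 library). For colesevelam against lean, 24 became 109 with the authors' factors (17 to 32 without 1 library). In the fits with 1 lean library the obese groups supply the spread, so calls from those fits are not given. The causes of these shifts in the number called were not tested. Values of arms without lean replicate 4 were added after seeing the data. Libraries of different groups with the same replicate number correlated over 0.1 in 6 of 18 pairs, against 38 of 90 pairs with different numbers. In 5 of 18 checks the best match of a library in another group had its own replicate number. With the replicate block miR-140-3p was −0.53, 1.09 and 0.56. Depth limits the 5p arm, where a count of 0 allows up to 84.7 CPM.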

Other observations

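3 tested miRNAs, named after their values were seen, moved most against miR-140-3p over the 18 libraries: miR-142-5p (r = −0.78), miR-27a-3p (r = −0.76) and miR-126a-5p (r = −0.72). Within groups r was −0.67, −0.69 and −0.63 for the same 3.

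Of the 5 pairs of libraries with one label number, the miR-140-3p levels differed by 0.01 to 0.51 on the log2 scale (median 0.11), against a median of 0.56 over the 40 pairs of one group with different numbers. The profiles of all tested miRNAs were not more alike in those pairs, with a median correlation of deviations of −0.33 against −0.18. The labels do not say what the number stands for.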
